A study of Mus musculus with 20 samples.

Results

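The genes described here are 43 genes of the lysosome and of autophagy, from which the cathepsin proteases are left out. They were matched by their symbols in the deposited messenger RNA table. All 43 symbols were found among its 21949 genes, and all 43 had a mean of at least 0.5 FPKM over the 20 libraries, as did 13722 genes in all. By role they comprise 11 hydrolases that cleave glycans, 7 hydrolases of lipids and proteins with their activators, 11 membrane and transport proteins, 4 parts of the proton pump, and 10 regulators and autophagy proteins.

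RNA was sequenced from frozen cerebral cortex of mice on a (C57BL/6 x C3H)F1 background, in 4 groups of 5 libraries each. TG10M and TG03M are 10-month-old and 3-month-old PS19 transgenic mice, labelled Tg(Prnp-MAPT*P301S)PS19Vle, and WT10M and WT03M are wild-type mice of the same ages. PS19 mice express mutant human tau from the Prnp (prion protein) promoter, so the transgene is not confined to one neuron type, and the tissue is whole cortex with all its cell types. The labels do not say that each replicate is a separate animal, so a p-value weighs a difference against the spread between these libraries, which may be technical.

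Lysosomes are acidic compartments in which hydrolases break down glycans, lipids and proteins. A proton pump in the membrane, the V-ATPase, keeps them acidic, and autophagy delivers parts of the cytoplasm to them inside vesicles coated with LC3 and GABARAP proteins. Many of the genes are lysosomal storage disease genes, and the transcription factor TFEB acts on many of them through an element built around the letters CACGTG. In brain, microglia are rich in lysosomes, and neurons depend on autophagy for clearing protein aggregates.

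The promoters are shown because these genes are known as a group that can be switched on together through that element. RefSeq promoters (GRCm38.p6) were matched for 35 of the 43 genes, and a window from 250 bases before to 50 bases after the transcription start was searched for CACGTG, which reads the same on both strands, and for the longer TCACGTGA, which contains it. CACGTG was found in 9 of the 35 (25.7%), against 11.5% of 10337 tested genes and 8.09% of all 27025 genes with a promoter entry. TCACGTGA was found in 5 of the 35 (14.3%), against 2.10% of the tested genes and 1.13% of all genes. The 9 genes with CACGTG were Lamp1 with 4 copies, Mcoln1, Cln3 and Gla with 2 each, and Atp6v0d1, Atp6v1a, Glb1, Naglu and Gaa with 1 each. A match describes the letters and not a bound site, and the absence of one says only that these letters are not in this window. The 250 bases before the start are printed for 5 genes, 5′ to 3′, with CACGTG in capitals. They are the 3 with the smallest p between the genotypes at 10 months (Man2b1, Grn and Lamp1), 1 other whose groups did not overlap there (Glb1), and 1 with a pair of matches whose level differed little (Mcoln1), picked once their values were known.
Man2b1, chr8:85083019-85083268, plus strand: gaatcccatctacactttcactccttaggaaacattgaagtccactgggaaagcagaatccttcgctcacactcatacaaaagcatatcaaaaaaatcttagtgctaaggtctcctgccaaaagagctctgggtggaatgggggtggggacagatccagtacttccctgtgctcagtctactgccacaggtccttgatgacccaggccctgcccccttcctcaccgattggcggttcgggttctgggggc
Grn, chr11:102430257-102430506, plus strand: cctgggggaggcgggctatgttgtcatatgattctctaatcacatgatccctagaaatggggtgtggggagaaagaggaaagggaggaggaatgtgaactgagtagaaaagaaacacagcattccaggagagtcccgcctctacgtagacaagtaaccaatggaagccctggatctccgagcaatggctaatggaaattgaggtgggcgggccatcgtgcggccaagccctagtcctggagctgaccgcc
Lamp1, chr8:13158911-13159160, plus strand: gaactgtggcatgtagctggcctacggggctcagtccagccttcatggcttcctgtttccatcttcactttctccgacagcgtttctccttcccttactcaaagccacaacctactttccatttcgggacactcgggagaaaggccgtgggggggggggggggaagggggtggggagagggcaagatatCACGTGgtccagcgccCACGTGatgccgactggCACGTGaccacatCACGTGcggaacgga
Glb1, chr9:114400828-114401077, plus strand: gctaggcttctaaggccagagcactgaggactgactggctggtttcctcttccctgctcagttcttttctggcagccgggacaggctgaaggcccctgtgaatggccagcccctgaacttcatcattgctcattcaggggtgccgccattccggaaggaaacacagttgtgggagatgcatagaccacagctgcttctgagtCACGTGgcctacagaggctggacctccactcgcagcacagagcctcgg
Mcoln1, chr8:3500269-3500518, plus strand: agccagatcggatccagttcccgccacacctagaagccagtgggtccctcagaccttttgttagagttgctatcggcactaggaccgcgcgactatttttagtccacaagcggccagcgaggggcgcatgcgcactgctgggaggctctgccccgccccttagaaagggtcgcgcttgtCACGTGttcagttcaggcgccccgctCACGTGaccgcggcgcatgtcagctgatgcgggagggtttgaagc
The 4 matches of Lamp1 began 61, 45, 28 and 15 bases before the start, and those of Mcoln1 71 and 45 bases before it. Glb1 had its match 48 bases before the start, while Man2b1 and Grn had none. The start is that of the RefSeq promoter. The printed stretches of Grn, Glb1 and Mcoln1 run past the gene starts in GENCODE M21. Those starts are 102430315 for Grn, 114401076 for Glb1 and 3500457 for Mcoln1. Part of each stretch, only the last bases in Glb1, therefore lies inside the gene as annotated there. In Mcoln1 that part holds the match that began 45 bases before the RefSeq start.

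The genes differed widely in level, which FPKM, fragments scaled to transcript length and library depth, gives per length. Their median was 31.7 FPKM, against 11 FPKM over the tested genes. Psap, the precursor of the saposins that help hydrolases reach their lipids, was highest with a mean of 708 FPKM over the 20 libraries, followed by Gabarapl1 with 517, Sqstm1 with 272, Atp6v1a with 260 and Atp6v1b2 with 231 FPKM. In all, 10 genes were above 100 FPKM, and 4 of these were the proton pump genes. At the other end 12 genes were under 10 FPKM, with the regulator Tfeb at 3.38, Naglu at 3.17 and Galns at 2.06 FPKM. The genes varied somewhat less within a group than genes at large: the median SD of log2(FPKM + 0.5) within groups was 0.11, against 0.14 over the tested genes. It was smallest for Scarb2 with 0.044 and largest for Cln3 with 0.25.

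**Figure D1:**
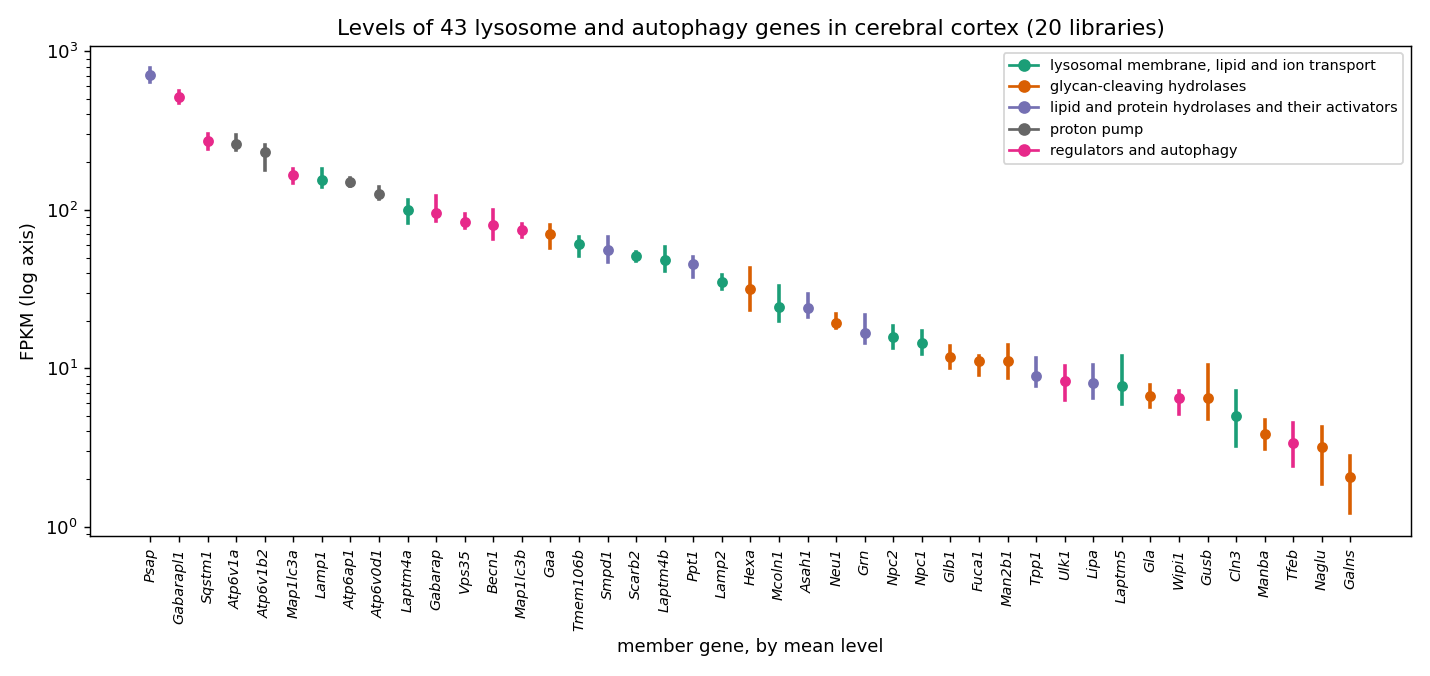
Mean level of each of the 43 genes over the 20 libraries (points) with the lowest and highest library (lines), in FPKM on a log axis, coloured by role. Psap at 708 FPKM and Gabarapl1 at 517 FPKM stand highest, and Galns at 2.06 FPKM lowest.

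Judged from the steps between low FPKM values, each library held 22.6 to 30.2 M (mega) fragments. Prnp, whose promoter drives the transgene, had 695 to 841 FPKM in TG libraries and 412 to 528 FPKM in WT libraries, with no overlap. The cortical neuron markers Slc17a7, Neurod6 and Cux2 were present in all 20 libraries, while Ttr of the choroid plexus ranged from 4.79 to 996 FPKM and Drd1 of the striatum from 7.08 to 23.5 FPKM. On the first principal component of the tested genes (23.9% of the variance), TG10M replicates 1 and 5 and WT10M replicate 5 scored 26.2 to 30.9 and all others -12.1 to 2.52; they are called the set apart. These 3 libraries and TG03M replicates 2 to 5 had 13.9 to 20.5 FPKM of the chaperone gene Hsp90aa1, against 532 to 687 FPKM in the other 13. The labels name no batch that covers either set.

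At 10 months the lysosomal genes leaned towards higher levels in transgenic cortex, by small amounts. Of the 43, 38 had a higher mean of log2(FPKM + 0.5) in TG10M than in WT10M, against 50.2% of the tested genes, and the median difference was 0.07, against 0.00 over the tested genes. Only Man2b1 passed the test across all genes, which was limma with Benjamini-Hochberg adjustment and a threshold of 0.05 for the adjusted p. Of the tested genes 0.583% were called higher and 0.051% lower. At an unadjusted p under 0.05, 14 of the 43 were higher and 0 were lower, against 7.97% and 6.11% of the tested genes. In 3 genes (Man2b1, Npc2 and Glb1) every TG10M library was above every WT10M library, as in 1.65% of the tested genes, and the reverse held for 0 of the 43 and 0.729% of the tested genes. Differences below are of log2(FPKM + 0.5), which understates the change of genes with low values.

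**Figure D2:**
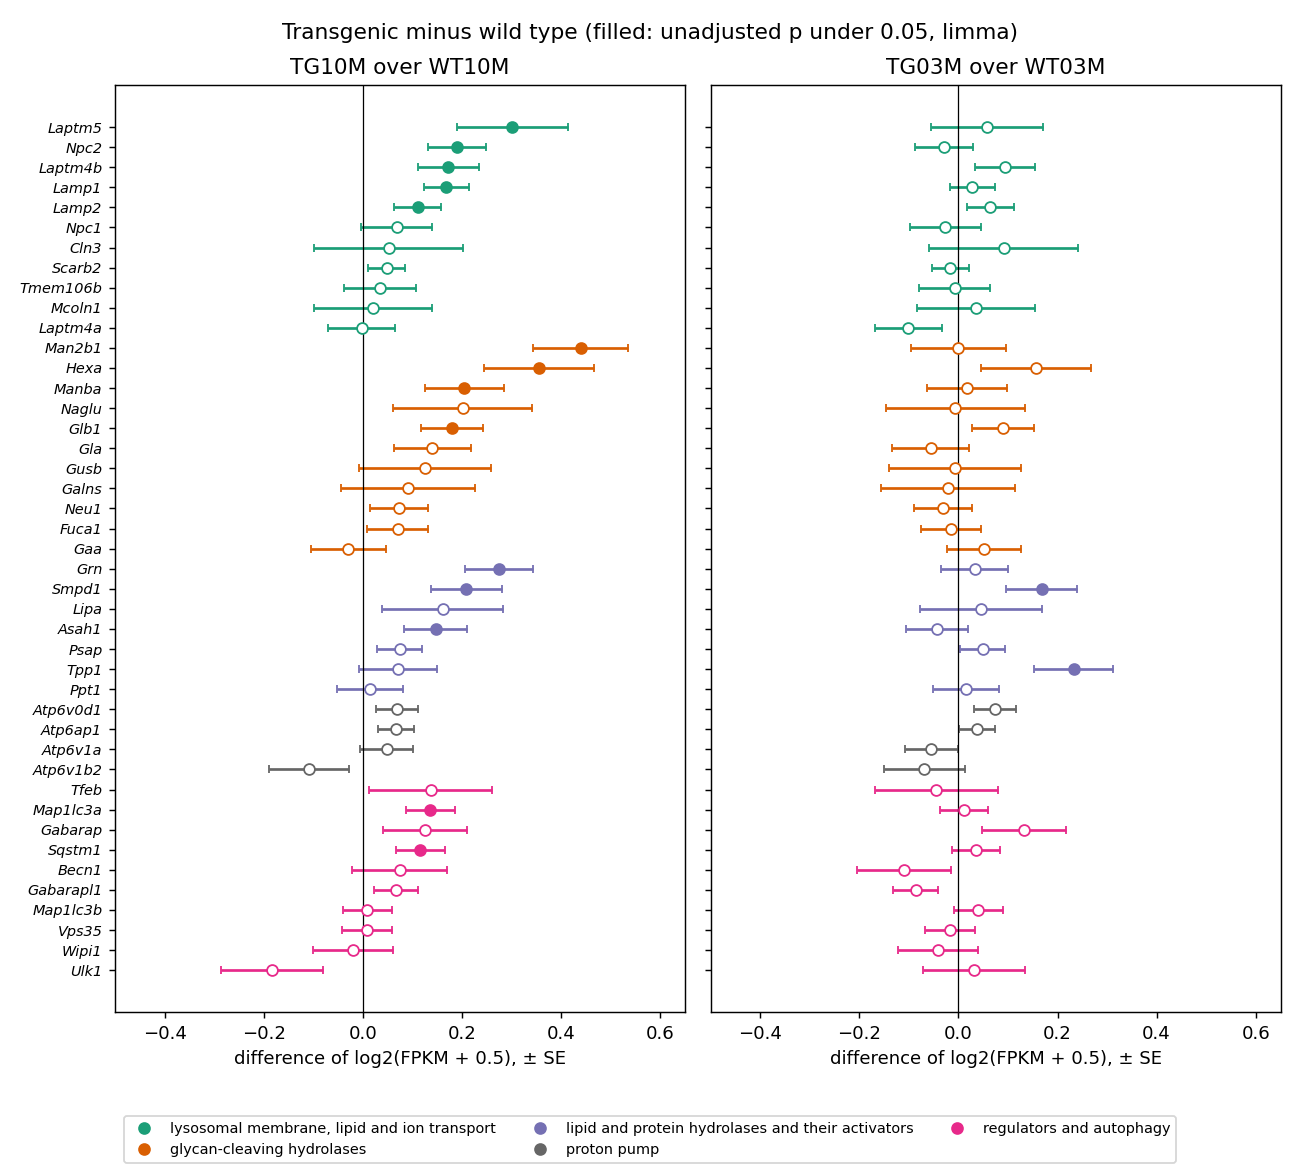
Difference of log2(FPKM + 0.5) between TG and WT for each gene at 10 months (left) and 3 months (right), with bars of ± 1 SE and filled points where the unadjusted p was under 0.05. At 10 months 38 of 43 points lie right of 0 and 14 are filled, and at 3 months 23 lie right of 0 and 2 are filled.

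Among the 11 hydrolases that cleave glycans, 10 had a difference above 0 at 10 months, 4 reached an unadjusted p under 0.05 and the median difference was 0.14. Man2b1 (ENSMUSG00000005142; GRCm38 chromosome 8, 85083270 to 85098282, plus strand), the lysosomal alpha-mannosidase, had 14.1, 12.3, 12.6, 14.1 and 13.6 FPKM in TG10M replicates 1 to 5, against 10.1, 8.74, 8.89, 9.73 and 11.2 FPKM in WT10M replicates 1 to 5. The groups did not overlap, by a margin narrower than the range of either. Man2b1 had a within-group SD of 0.16 on the log2 scale, above the medians of the lysosomal genes (0.11) and the tested genes (0.14). Man2b1 averaged 13.3 ± 0.85 FPKM in TG10M and 9.72 ± 0.99 FPKM in WT10M (SD, n = 5 each), a difference of 0.44 (SE 0.10, adjusted p = 0.0392, limma). That call was close to the threshold. It was lost without any 1 of TG10M replicates 1, 3, 4 or 5, WT10M replicates 1 to 4, TG03M replicate 2, or WT03M replicates 3 or 4, with an adjusted p of up to 0.142, while the difference stayed between 0.41 and 0.49. It was also lost in a fit of the TG10M and WT10M libraries alone (adjusted p = 0.0639).

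Hexa (ENSMUSG00000025232; chromosome 9, 59539540 to 59565109, plus strand), the alpha subunit of beta-hexosaminidase, had 38.3, 35.7, 36.5, 42.7 and 40.3 FPKM in TG10M, against 27.2, 31.7, 25.9, 30.3 and 36.3 FPKM in WT10M. One WT10M library, replicate 5, reached into the range of TG10M. The difference of Hexa was 0.36 (SE 0.11) and did not pass (adjusted p = 0.157, limma). Glb1 (ENSMUSG00000045594; chromosome 9, 114401076 to 114474898, plus strand), the lysosomal beta-galactosidase, had 12.3, 13.8, 12.5, 13.5 and 12.6 FPKM in TG10M, against 11.6, 10.5, 10.5, 12.2 and 12 FPKM in WT10M. Its groups parted narrowly and the difference was 0.18 (SE 0.06, adjusted p = 0.204, limma). Manba, the beta-mannosidase, averaged 4.45 ± 0.30 FPKM in TG10M and 3.80 ± 0.32 FPKM in WT10M, a difference of 0.21. The other 7, Naglu (heparan sulphate), Gla (alpha-galactosidase), Gusb (beta-glucuronidase), Galns (a sulphatase), Neu1 (sialidase), Fuca1 (fucosidase) and Gaa (glycogen), lay between -0.03 in Gaa and 0.20 in Naglu, with an unadjusted p above 0.05.

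The 7 hydrolases of lipids and proteins with their activators all had a difference above 0 at 10 months, with a median of 0.15. Grn (ENSMUSG00000034708; chromosome 11, 102430315 to 102437048, plus strand), progranulin, which is cut into granulins inside lysosomes and whose loss causes frontotemporal dementia and a storage disease in humans, had 17.1, 20.5, 19.6, 21.8 and 17.2 FPKM in TG10M, against 14.7, 16.3, 15.6, 17.8 and 14.6 FPKM in WT10M. Only the highest WT10M library reached into the TG10M range. Grn averaged 19.2 ± 2.06 FPKM in TG10M and 15.8 ± 1.34 FPKM in WT10M, and its difference of 0.27 (SE 0.07) missed the threshold (adjusted p = 0.0784, limma). Without WT10M replicate 5, or without the set apart, Grn passed.

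Smpd1 (ENSMUSG00000037049; chromosome 7, 105554360 to 105558389, plus strand), acid sphingomyelinase, had 67.2, 60.5, 57.1, 56.7 and 65.9 FPKM in TG10M, against 51.4, 48.7, 48.6, 52.0 and 66.1 FPKM in WT10M. The 4 other WT10M libraries lay below all of TG10M, while WT10M replicate 5 matched the top of it. The difference of Smpd1 was 0.21 (SE 0.07, adjusted p = 0.190, limma), and it passed without that library. Asah1 (ENSMUSG00000031591; chromosome 8, 41340197 to 41374773, minus strand), acid ceramidase, had 29.3, 26.0, 25.3, 25.0 and 28.1 FPKM in TG10M, against 25.0, 22.4, 23.1, 22.5 and 27.8 FPKM in WT10M. The highest libraries of both groups were those of the set apart, and the difference was 0.15 (adjusted p = 0.307, limma). Lipa (lysosomal acid lipase) differed by 0.16, Psap by 0.07, Tpp1 (a peptidase) by 0.07 and Ppt1 (a thioesterase that removes palmitate from proteins) by 0.01, each with an unadjusted p above 0.05.

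Of the 11 membrane and transport proteins, 5 were higher in TG10M at an unadjusted p under 0.05 and the median difference was 0.07. Lamp1 (ENSMUSG00000031447; chromosome 8, 13159161 to 13175338, plus strand), the abundant glycoprotein that lines the lysosomal membrane, had 172, 156, 158, 162 and 181 FPKM in TG10M, against 150, 142, 139, 143 and 163 FPKM in WT10M. WT10M replicate 5 was again the single library inside the TG10M range. The difference of Lamp1 was 0.17 (SE 0.05, adjusted p = 0.111, limma), and it passed without that library or without the set apart. Lamp2, its relative that also serves chaperone-mediated autophagy, averaged 36.5 ± 2.03 FPKM in TG10M and 33.8 ± 1.35 FPKM in WT10M, a difference of 0.11 (adjusted p = 0.308, limma).

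Npc2 (ENSMUSG00000021242; chromosome 12, 84754562 to 84773152, minus strand), which hands cholesterol to Npc1 for export from the lysosome, had 16.9, 17.95, 16.8, 18.5 and 16.5 FPKM in TG10M, against 16.2, 14.4, 15.4, 15.3 and 14.2 FPKM in WT10M. The groups did not overlap, by a margin narrower than the spread within either. Its difference was 0.19 (SE 0.06, adjusted p = 0.149, limma), whereas Npc1 differed by 0.07 (adjusted p = 0.685, limma). Laptm4b (ENSMUSG00000022257; chromosome 15, 34238028 to 34284302, plus strand) and Laptm5, lysosomal membrane proteins of which Laptm5 is known from blood cells and microglia, differed by 0.17 and 0.30. Laptm5 averaged 9.16 ± 1.74 FPKM in TG10M and 7.27 ± 0.74 FPKM in WT10M. The remaining 5, the calcium channel gene Mcoln1, Scarb2 (the carrier of glucocerebrosidase), Cln3, Tmem106b and Laptm4a, lay between 0.00 in Laptm4a and 0.05 in Cln3.

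None of the 4 proton pump genes reached an unadjusted p under 0.05 at 10 months. Atp6v0d1, Atp6ap1 and Atp6v1a differed by 0.07, 0.07 and 0.05. Atp6v1b2 (ENSMUSG00000006273; chromosome 8, 69088646 to 69113711, plus strand), a subunit of the cytoplasmic sector that binds ATP, had 188, 230, 225, 228 and 181 FPKM in TG10M, against 245, 231, 244, 238 and 178 FPKM in WT10M. Its 3 lowest values of 181, 188 and 178 FPKM were those of the set apart.

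Among the 10 regulators and autophagy proteins, 2 were higher at an unadjusted p under 0.05 and the median difference was 0.07. Map1lc3a, an LC3 protein of the autophagosome membrane, averaged 172 ± 10.0 FPKM in TG10M and 157 ± 9.90 FPKM in WT10M, a difference of 0.14 (adjusted p = 0.214, limma). Sqstm1, the receptor p62 that links ubiquitylated cargo to LC3, averaged 285 ± 13.5 FPKM in TG10M and 263 ± 18.4 FPKM in WT10M, a difference of 0.12 (adjusted p = 0.291, limma). Tfeb itself averaged 3.56 ± 0.60 FPKM in TG10M and 3.20 ± 0.57 FPKM in WT10M, a difference of 0.14 within the spread of the libraries (adjusted p = 0.628, limma). The others were Gabarap with 0.13, Becn1 (of the lipid kinase complex that starts autophagosomes) with 0.07, Gabarapl1 with 0.07, Map1lc3b with 0.01, Vps35 (of the retromer, which returns sorting receptors from endosomes) with 0.01 and Wipi1 with -0.02. Ulk1, the kinase at the head of the pathway, had the lowest difference of the 43, -0.18 (adjusted p = 0.423, limma).

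**Figure D3:**
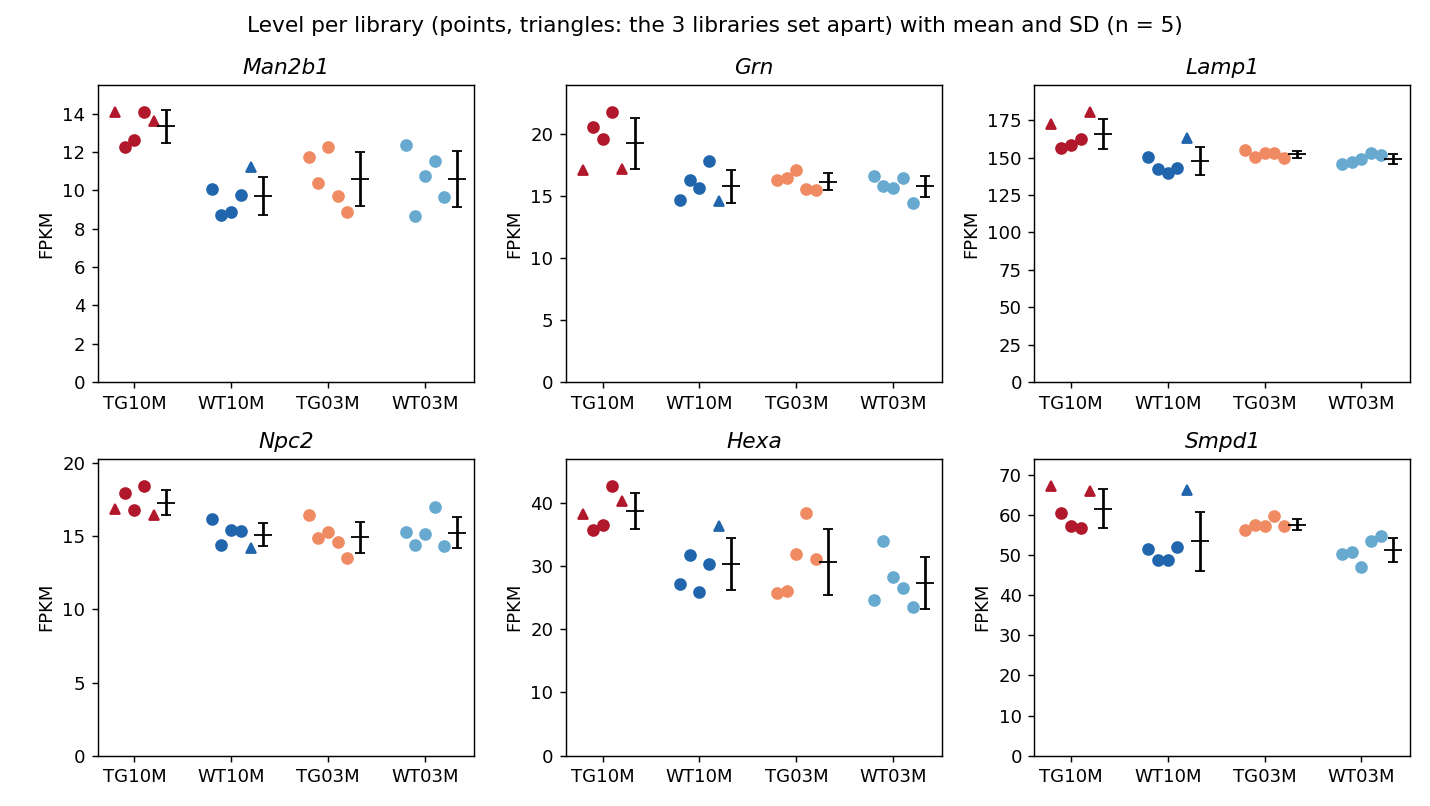
Level in FPKM of 6 genes in each library, by group from left to right TG10M, WT10M, TG03M and WT03M, with triangles for the set apart (TG10M replicates 1 and 5, WT10M replicate 5) and mean ± SD at the side (n = 5). Man2b1 and Npc2 part completely at 10 months, and in Lamp1, Hexa and Smpd1 the WT10M triangle is the only WT10M point inside the TG10M range.

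Of the alternatives run, leaving out WT10M replicate 5 changed the 10-month count most. Without it 10 of the 43 genes were called, all higher in TG10M (Asah1, Gabarap, Grn, Hexa, Lamp1, Laptm4b, Man2b1, Map1lc3a, Smpd1 and Sqstm1), but 1600 genes were then called in all, against 87 with every library. That library is the only wild-type one of the set apart, so a fit without it sets WT10M libraries of 1 kind against TG10M libraries of both kinds. Without all 3 libraries of the set, 4 of the 43 were called (Man2b1, Lamp1, Grn and Smpd1), and with a term for the set 3 (Man2b1, Lamp1 and Grn), while 326 and 178 genes were called in all. Among the 7 other 10-month libraries 38 of the 43 differences were above 0, with a median of 0.10, and within the set apart, 2 TG10M libraries against 1 WT10M library, 30 were above 0, with a median of 0.05. No share of the tested genes stands beside these counts, and all differences within the set rest on the same WT10M library. The differences of Man2b1 (0.45 and 0.30), Grn (0.35 and 0.23), Npc2 (0.20 and 0.22) and Lamp1 (0.15 and 0.11) had the same sign in the 7 others and in the set apart. So did those of Hexa (0.41 and 0.11) and Smpd1 (0.21 and 0.01). Of these genes all but Npc2 had the smaller difference within the set. In 8 of the 43 genes all 3 libraries of the set stood above the 7 others (15.6% of the tested genes), among them Lamp1, Smpd1, Asah1 and Gabarap, and in 6 all stood below (18.7%), among them Atp6v1b2, Ulk1 and Tpp1.

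Markers of several cell types moved with the genotype at 10 months. The summed level of 15 microglial markers was 441 to 534 FPKM in TG10M libraries and 284 to 446 FPKM in WT10M libraries, with 446 FPKM in WT10M replicate 5 and at most 356 FPKM in the other WT10M libraries. Of these 15 markers 12 were higher at an unadjusted p under 0.05 and 4 were called, with a median difference of 0.36. Over all tested genes 7.97% were higher at that unadjusted p and 0.583% were called higher. Summed astrocyte markers were 1450 to 1619 FPKM in TG10M and 1184 to 1332 FPKM in WT10M, and 3 of 10 were called. Markers of cortical excitatory neurons summed to 524 to 647 FPKM in TG10M and 508 to 728 FPKM in WT10M, with 0 of 10 called. The lowest sums were those of the set apart, 508 FPKM in WT10M replicate 5 and 524 and 531 FPKM in TG10M replicates 1 and 5. Summed markers of endothelial cells were 195 to 224 FPKM in TG10M and 156 to 186 FPKM in WT10M, and those of mural cells 110 to 149 FPKM in TG10M and 79.1 to 104 FPKM in WT10M. Oligodendrocyte markers summed to 1608 to 1746 FPKM in TG10M and 1310 to 1692 FPKM in WT10M. All 10 endothelial, all 10 mural and all 10 oligodendrocyte markers had a difference above 0, with medians of 0.32, 0.25 and 0.20. In the same order 4, 6 and 6 were higher at an unadjusted p under 0.05 (7.97% of the tested genes). Called higher were 0, 1 and 0 (0.583% of the tested genes). Striatal markers summed to 195 to 472 FPKM in TG10M and 426 to 547 FPKM in WT10M, with 0 of 10 differences above 0 and a median of -0.57. At an unadjusted p under 0.05, 5 of these 10 were lower (6.11% of the tested genes), and 0 were called. In 2 of them every TG10M library was below every WT10M library, as in 0.729% of the tested genes. The ranges of inhibitory neuron, choroid plexus and blood markers overlapped widely between TG10M and WT10M. No listed marker was under 0.1 FPKM in every library. In whole cortex, more or fewer cells of a type and more or less RNA per cell cannot be told apart. The part of these cell types, and of striatal tissue, in the lysosomal differences was not tested.

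At 3 months the lysosomal genes as a group were about level between the genotypes. None was called, against 0.277% of the tested genes called higher and 0.0219% lower. At an unadjusted p under 0.05, 2 were higher and 0 lower, against 5.78% and 4.82% of the tested genes, and 23 of 43 differences were above 0, against 49.2% of the tested genes, with a median of 0.01. Tpp1 (ENSMUSG00000030894; chromosome 7, 105744811 to 105752235, minus strand), a peptidase whose loss causes a childhood neuronal storage disease, had 8.65, 9.45, 9.33, 11.6 and 10.8 FPKM in TG03M, against 8.16, 8.68, 7.99, 8.45 and 8.53 FPKM in WT03M. TG03M replicate 1, which was not among the libraries of low Hsp90aa1, lay inside the WT03M range, and the 4 others above it. The difference of Tpp1 was 0.23 (SE 0.08, adjusted p = 0.263, limma).

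Smpd1 was the only 1 of the 43 whose genotypes did not overlap at 3 months, as in 2.01% of the tested genes, while 2.47% of the tested genes and 0 of the 43 lay wholly lower in TG03M. It had 56.2, 57.5, 57.1, 59.7 and 57.2 FPKM in TG03M, against 50.3, 50.7, 47.0, 53.4 and 54.6 FPKM in WT03M. The TG03M libraries were closely grouped above all of WT03M. The difference of 0.17 (SE 0.07) did not pass (adjusted p = 0.403, limma), but did once the set apart, which holds 10-month libraries only, was left out of the shared fit or given a term (473 and 492 genes were then called in all, against 41). With a term for the 7 libraries of low Hsp90aa1, which include TG03M replicates 2 to 5, the difference of Smpd1 at 3 months was 0.0019 (adjusted p = 0.994, limma), and 4 genes were called in all. That term also covers the set apart, whose libraries all stood above the other 10-month libraries in Smpd1. Without the term, Smpd1 was 0.14 above WT03M in TG03M replicate 1, which is not low in Hsp90aa1. Over TG03M replicates 2 to 5 it was 0.18 above WT03M. Gabarapl1 (ENSMUSG00000030161; chromosome 6, 129533160 to 129542346, plus strand), the most abundant of the LC3 and GABARAP family here, had 511, 476, 525, 485 and 469 FPKM in TG03M, against 519, 506, 529, 542 and 520 FPKM in WT03M. The groups overlapped and the difference was -0.09 (SE 0.04, adjusted p = 0.506, limma). Atp6v0d1 (ENSMUSG00000013160; chromosome 8, 105524465 to 105566047, minus strand), a subunit of the membrane sector of the pump, had 124, 129, 126, 134 and 139 FPKM in TG03M, against 125, 123, 120, 128 and 124 FPKM in WT03M, a difference of 0.07 (adjusted p = 0.555, limma).

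Gabarap (ENSMUSG00000018567; chromosome 11, 69991143 to 69994951, plus strand) differed by 0.13 at 3 months (SE 0.08, adjusted p = 0.615, limma), with 90.4, 104, 95.4, 102 and 91.9 FPKM in TG03M, against 87.6, 89.5, 85.8, 90.7 and 86.4 FPKM in WT03M. Only TG03M replicate 1 lay under the highest WT03M library. With a term for the 7 libraries of low Hsp90aa1, which also covers the set apart, the difference turned to -0.10. Without the term, Gabarap was 0.04 above WT03M in TG03M replicate 1 and 0.16 above it over TG03M replicates 2 to 5. For the 43 genes the median difference from WT03M was 0.05 in TG03M replicate 1 and -0.01 over TG03M replicates 2 to 5. Man2b1, the gene called at 10 months, averaged 10.6 ± 1.40 FPKM in TG03M and 10.6 ± 1.48 FPKM in WT03M, and its difference at 3 months was -0.00 (adjusted p = 0.9997, limma). Summed microglial markers were 291 to 363 FPKM in TG03M and 271 to 338 FPKM in WT03M, and 0 of 15 were called. Oligodendrocyte markers summed to 1682 to 2021 FPKM in TG03M and 1464 to 1627 FPKM in WT03M, with 4 of 10 higher at an unadjusted p under 0.05 (5.78% of the tested genes) and 0 called. Choroid plexus markers summed to 13.6 to 1054 FPKM in TG03M and 8.82 to 38.5 FPKM in WT03M, and all 9 tested had a difference above 0, with a median of 1.0 and 0 called. Their part in the lysosomal differences was not tested.

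In wild-type cortex the ages differed little in these genes. None of the 43 was called between WT10M and WT03M (limma), against 0.051% of the tested genes called higher and 0.0146% lower, 1 was higher and 0 lower at an unadjusted p under 0.05 (3.59% and 3.13% of the tested genes), and the median difference was 0.02. Gaa (ENSMUSG00000025579; chromosome 11, 119267887 to 119285454, plus strand), the enzyme that degrades glycogen in lysosomes, had 65.6, 75.8, 72.4, 77.7 and 79.7 FPKM in WT10M, against 74.4, 67.6, 65.4, 67.2 and 57.7 FPKM in WT03M. The ranges overlapped over most of WT03M, and the difference was 0.16 (SE 0.08, adjusted p = 0.722, limma). Ppt1 (ENSMUSG00000028657; chromosome 4, 122836242 to 122859175, plus strand) was the only 1 of the 43 whose ages did not overlap, and it was lower in WT10M, as in 0.794% of the tested genes (0 of the 43 and 0.86% of the tested genes lay wholly higher). It had 41.4, 43.98, 45.4, 39.8 and 45.4 FPKM in WT10M, against 46.5, 45.6, 49.0, 49.0 and 47.5 FPKM in WT03M, a difference of -0.14 (SE 0.07, adjusted p = 0.754, limma).

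Laptm4b had 46.7, 44.1, 44.8, 49.0 and 55.7 FPKM in WT10M, against 41.0, 46.6, 42.5, 45.1 and 44.8 FPKM in WT03M, a difference of 0.12 (adjusted p = 0.763, limma). Laptm4a (ENSMUSG00000020585; chromosome 12, 8921664 to 8938742, plus strand), its close relative, had 106, 98.7, 104, 96.6 and 82.5 FPKM in WT10M, against 107, 101.3, 104, 115 and 106 FPKM in WT03M, a difference of -0.13 (adjusted p = 0.784, limma). The lowest Laptm4a value and the highest Laptm4b value were those of WT10M replicate 5. Atp6v1b2 had 254, 234, 240, 257 and 255 FPKM in WT03M and differed by -0.13 as well (adjusted p = 0.847, limma).

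In transgenic cortex the older libraries had the higher levels of many of these genes, though none passed the test. None of the 43 was called between TG10M and TG03M, against 0.641% of the tested genes called higher and 0.204% lower. At an unadjusted p under 0.05, 15 were higher and 1, Atp6v1b2, was lower, against 7.94% and 8.11% of the tested genes, and the median difference was 0.09. All 11 glycan-cleaving hydrolases had a difference above 0, with a median of 0.14, and 6 of them reached an unadjusted p under 0.05. This comparison shares the TG10M libraries with that of the genotypes at 10 months, so the comparisons are not independent of each other. Every TG10M library was above every TG03M library in 5 genes (Asah1, Npc2, Grn, Man2b1 and Lamp1), as in 1.84% of the tested genes, and below it in 0 of the 43 and 1.57% of the tested genes.

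The smallest p with age was that of Asah1, which in TG03M had 21.7, 21.4, 23.1, 24.1 and 22.1 FPKM. All were below its TG10M values above, and the difference was 0.24 (SE 0.06, adjusted p = 0.0718, limma). Grn in TG03M had 16.3, 16.4, 17.1, 15.5 and 15.5 FPKM, a narrow range just below all TG10M libraries, and its difference was 0.24 (SE 0.07, adjusted p = 0.102, limma). Npc2 had 16.5, 14.9, 15.3, 14.6 and 13.5 FPKM in TG03M, and the difference was 0.21 (SE 0.06, adjusted p = 0.0975, limma). Its highest TG03M library stood just under the lowest of TG10M.

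Man2b1 had 11.7, 10.4, 12.2, 9.70 and 8.85 FPKM in TG03M and a difference with age of 0.33 (SE 0.10, adjusted p = 0.112, limma). Laptm4b had 55.3, 54.0, 49.9, 53.2 and 58.3 FPKM in TG10M, against 46.0, 45.2, 44.04, 50.2 and 49.7 FPKM in TG03M, a difference of 0.20 (SE 0.06, adjusted p = 0.121, limma). Here 1 TG10M library, replicate 3, lay inside the range of TG03M. Without WT10M replicate 5, which is in neither group but enters the shared estimate of the spread, Asah1 and Laptm4b passed, and without the set apart only Grn did. With a term for the 7 libraries of low Hsp90aa1, which include 4 of the 5 TG03M libraries, 10 genes passed, 9 higher and 1 lower, but 2319 of the 13722 tested genes were then called in all, against 116 with no term. Summed microglial markers were 441 to 534 FPKM in TG10M and 291 to 363 FPKM in TG03M, and 7 of 15 were called higher (0.641% of the tested genes). Astrocyte markers summed to 1450 to 1619 FPKM in TG10M and 1164 to 1436 FPKM in TG03M, and 1 of 10 was called. Markers of cortical excitatory neurons summed to 524 to 647 FPKM in TG10M and 676.5 to 791 FPKM in TG03M. Of these 10 markers 1 had a difference above 0, with a median difference of -0.20 and 0 called. The lowest TG10M sums, 524 and 531 FPKM, were those of replicates 1 and 5, of the set apart. The part of these cell types in the lysosomal differences was not tested.

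The difference between the genotypes at 10 months minus that at 3 months, the interaction of genotype and age, was tested in the same fit. None of the 43 genes was called, against 0.0364% of the tested genes called higher and 0% lower. At an unadjusted p under 0.05, 6 were higher (Man2b1, Npc2, Grn, Gabarapl1, Lamp1 and Asah1) and 0 lower, against 2.87% and 2.16% of the tested genes, and 33 of the 43 were above 0 (50.5% of the tested genes), with a median of 0.09. Man2b1 had the largest, 0.44 (SE 0.14, adjusted p = 0.800, limma). Those of Npc2 (0.22), Grn (0.24), Gabarapl1 (0.15), Lamp1 (0.14) and Asah1 (0.19) had an adjusted p of 0.962 each. So these data do not show that any of the 43 differed more between the genotypes at 10 months than at 3 months. Smpd1 had about the same difference at both ages, with 0.04 (SE 0.10) between them.

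**Figure D4:**
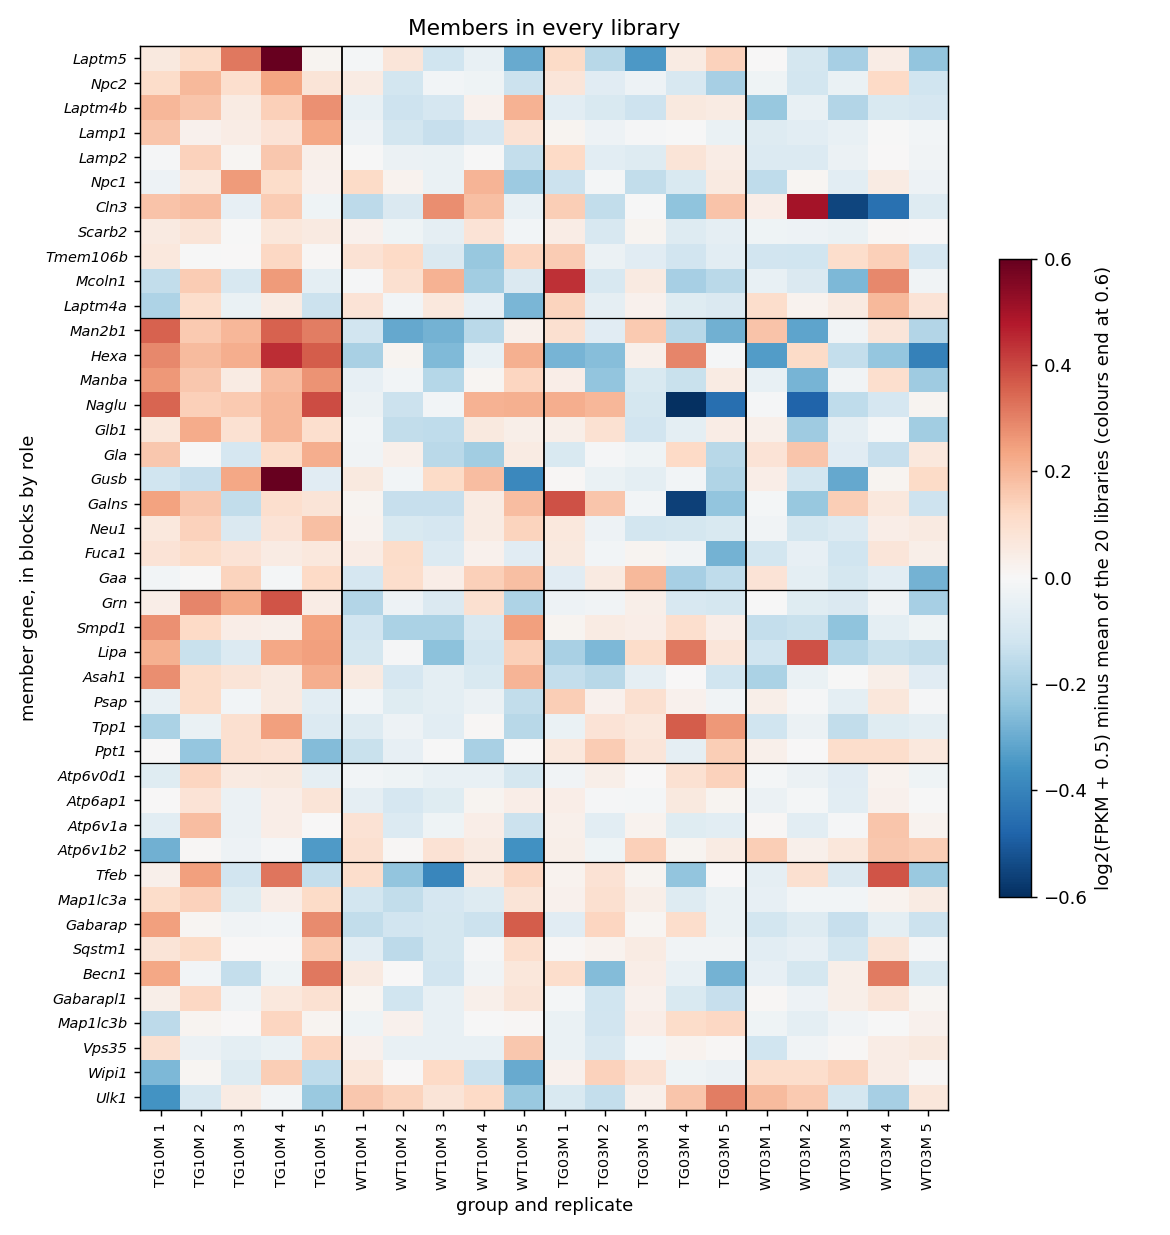
Deviation of log2(FPKM + 0.5) from the gene's mean over the 20 libraries, for the 43 genes (rows, in blocks by role) in each library (columns, TG10M, WT10M, TG03M and WT03M from left to right), in red above and blue below the mean. The median deviation of the 43 genes was 0.00 to 0.11 in TG10M libraries, -0.06 to 0.04 in WT10M, -0.04 to 0.03 in TG03M and -0.06 to 0.04 in WT03M libraries.

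Seen library by library, the 43 genes deviated little from their own means. The median deviation of a TG10M library was between 0.00 and 0.11, and that of a WT10M library between -0.06 and 0.04, so single libraries of these groups overlapped. CACGTG was in the promoter window of 2 of 11 genes that were higher in TG10M at an unadjusted p under 0.05, Lamp1 and Glb1, and of 7 of 24 that were not. Both counts are descriptions.

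Other genes of the same pathways were described by lists. Of 28 tested other lysosomal hydrolases and sorting factors, 3 were called higher at 10 months and 0 lower, 10 were higher and 2 lower at an unadjusted p under 0.05, and the median difference was 0.10. Over all tested genes 0.583% were called higher and 0.051% lower, and 7.97% were higher and 6.11% lower at an unadjusted p under 0.05. Gm2a, the activator that presents gangliosides to hexosaminidase, averaged 14.2 ± 1.05 FPKM in TG10M and 11.9 ± 1.03 FPKM in WT10M, a difference of 0.25 (SE 0.06, adjusted p = 0.0422, limma).

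This call depended on single libraries as that of Man2b1 did. Among the fits that left out 1 library, Gm2a was called without TG10M replicate 2, WT10M replicate 5 or WT03M replicate 2, and without each of the 17 others its adjusted p was above the threshold, up to 0.149. Over all 33 alternatives it was called in 13, with an adjusted p of up to 0.238. Gm2a was also called at 3 months, with 14.2 ± 0.24 FPKM in TG03M and 11.7 ± 0.32 FPKM in WT03M, a difference of 0.28 (SE 0.06, adjusted p = 0.0375, limma). That call was lost without any 1 of TG10M replicate 1, WT10M replicates 3 or 4, TG03M replicates 2 to 5 or the WT03M libraries (adjusted p of up to 0.112), and with the term for low Hsp90aa1 (a difference of 0.17, adjusted p = 0.211).

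Of 20 other lysosomal membrane proteins only Cd68, a glycoprotein of macrophage and microglial lysosomes, was called. Cd68 averaged 6.68 ± 1.19 FPKM in TG10M and 3.64 ± 0.19 FPKM in WT10M, a difference of 0.78 (SE 0.13, adjusted p = 0.00410, limma), and it passed in all 33 alternatives. Cd68 also stands in the list of microglial markers above. The median difference of the 20 membrane proteins was 0.00. The 14 other subunits of the proton pump had a median difference of 0.06 with 0 called, 1 higher and 0 lower at an unadjusted p under 0.05 (7.97% and 6.11% of the tested genes).

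None of the 40 tested other genes of the autophagy machinery was called at either age. At 10 months 1 was higher and 3 were lower at an unadjusted p under 0.05, against 7.97% and 6.11% of the tested genes, and the median was -0.01. Atg14, the subunit that directs the lipid kinase of Becn1 to the autophagosome, averaged 4.54 ± 0.83 FPKM in TG10M and 6.35 ± 1.35 FPKM in WT10M, a difference of -0.43 (SE 0.13, adjusted p = 0.132, limma). At 3 months Atg14 averaged 4.81 ± 0.25 FPKM in TG03M and 6.79 ± 0.18 FPKM in WT03M, a difference of -0.46 (SE 0.13, adjusted p = 0.155, limma). Atg14 passed without WT10M replicate 5 at both ages (adjusted p = 0.00199 at 10 months and 0.0130 at 3 months). With the term for low Hsp90aa1 its difference at 3 months was -0.13 (adjusted p = 0.573, limma). The lists of nutrient sensing at the lysosome (23 genes) and of the retromer, HOPS and ESCRT complexes (26 genes) had 0 called at 10 months and medians of -0.02 and 0.02. Lamtor5, of the scaffold that holds the growth kinase mTORC at the lysosome, had the smallest p of the nutrient sensing list, with a difference of -0.23 (adjusted p = 0.155, limma).

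**Figure D5:**
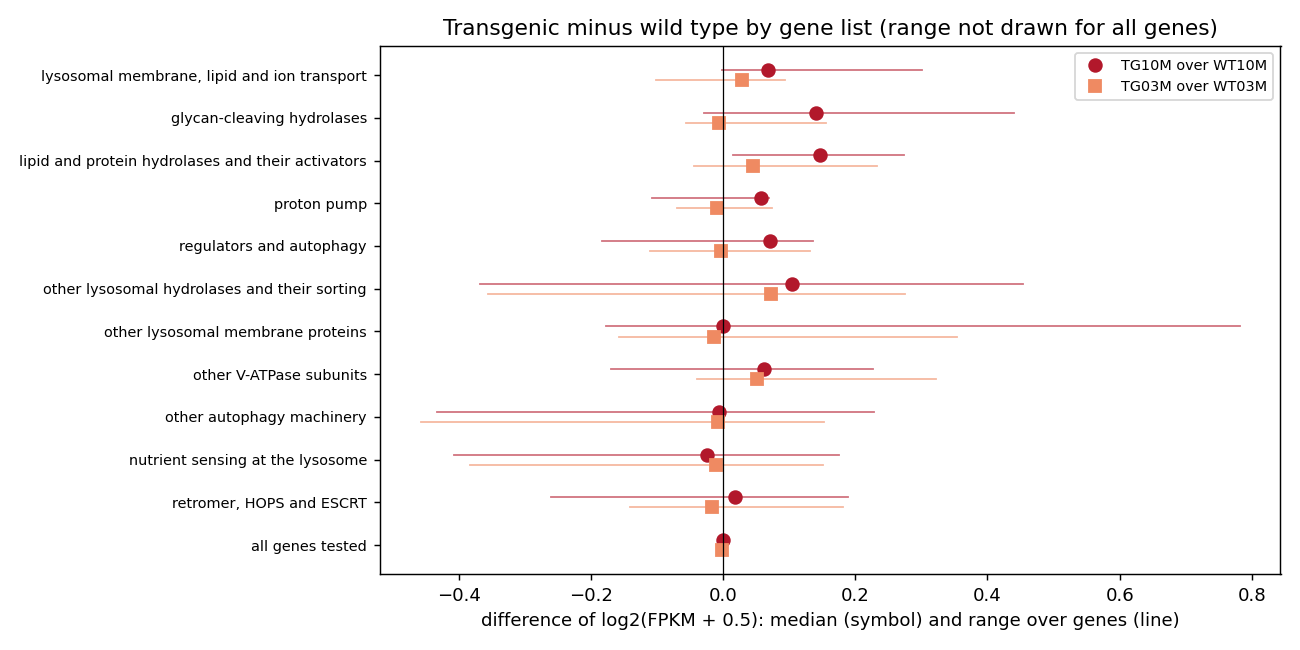
Median (symbols) and range over genes (lines) of the difference of log2(FPKM + 0.5) between TG and WT at 10 months (circles) and 3 months (squares), for the 5 role groups of the 43 genes, 6 lists of other genes of the pathways and all tested genes. At 10 months both hydrolase groups (0.14 and 0.15) and the other hydrolases (0.10) have the highest medians, and autophagy machinery (-0.01) and nutrient sensing (-0.02) lie near 0.

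The 43 genes were listed with 115 transcripts, 20 genes with 1 and 23 with more. In 34 genes 1 transcript held at least 80% of the gene's FPKM in the mean over the libraries, and in 9 it did not. Lamp2, which is spliced to different membrane anchors of which only one serves chaperone-mediated autophagy, was among these 9. Its 3 main transcripts, in the order of their transcript names, held 28.1%, 36.7% and 35.2% of its FPKM in TG10M, against 24.2%, 34.6% and 41.3% in WT10M. At 3 months the shares were 27.3%, 36.6% and 36.1% in TG03M, against 24.8%, 36.7% and 38.6% in WT03M. At 10 months the transcripts differed by 0.33, 0.19 and -0.11 on the log2 scale, and none passed (adjusted p = 0.364, 0.264 and 0.554, limma). When transcripts were tested in place of genes, 84 transcripts of the 43 genes passed the filter and 0 were called in any of the 5 comparisons. The lowest adjusted p among them was 0.0572 (limma, over 24698 transcripts).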

How the data were processed

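RNA of cerebral cortex was sequenced in 20 libraries, 5 for each of TG10M, WT10M, TG03M and WT03M. The deposited values are FPKM per transcript, per the file headers. The submitters' processing notes name GRCm38 (mm10), CASAVA, TopHat2, Cuffdiff and DESeq2; their roles, versions and any use of strand are unstated in these notes and labels. Transcript FPKM were summed per gene, and genes with a mean of at least 0.5 FPKM were fitted together on log2(FPKM + 0.5) with limma 3.58.1 (R 4.3.3, eBayes with a trend, 16 residual degrees of freedom, two-sided), with Benjamini-Hochberg adjustment over 13722 genes. The fit was tested on simulated data with independent noise in each gene and library. Those data did not model the set apart or the libraries of low Hsp90aa1. No scaling was added. The tables hold no counts. Depth was estimated from the smallest FPKM steps in 1815 genes with 1 long transcript, where 83.3 to 96.2% of low values lay within 0.1 of a whole multiple. Replicates of a group correlated with r of 0.978 to 0.994, and none was a copy. Members, lists and tests were chosen with earlier results of these data known. Members called, and the 5 with the smallest p per comparison, are given in full, as are called genes of the pathway lists and the gene with the smallest p in a list. The set apart and the libraries of low Hsp90aa1 were found from the values. Coordinates are from GENCODE M21 and promoters from RefSeq. Some genes of the lists are not reported here by name. Tables of non-coding transcripts were not used here.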

Additional observations from a re-analysis of the deposited data

Results flagged for a closer look

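In 9 of 172 groups of 5 libraries (43 genes in 4 groups), 1 library stood apart by Dixon's test, with a gap to its nearest neighbour of more than 0.71 of the group's range. Chance flags about 1 in 20 groups. Of the 9, 5 lay in WT10M replicate 5, the wild-type library of the set apart. There Gabarap had 121.6 FPKM (other WT10M libraries 85.4 to 88.0), Smpd1 66.1 FPKM (48.6 to 52.0), Atp6v1b2 178.4 FPKM (230.8 to 245), Ulk1 6.98 FPKM (8.71 to 9.28) and Lamp2 31.5 FPKM (33.9 to 34.8). Gabarap, Smpd1, Atp6v1b2 and Ulk1 stood on the side of the TG10M levels, and Lamp2 away from them. Gabarap was above and Atp6v1b2 below every TG10M library. The other 4 flags lay in 4 different libraries. Lipa had 10.6 FPKM in WT03M replicate 2 (7.02 to 7.31 in the other WT03M libraries), and Fuca1 had 9.05 FPKM in TG03M replicate 5 (10.95 to 11.6 in the other TG03M libraries). Tmem106b had 67.2 FPKM in TG03M replicate 1 (55.7 to 59.0 in the others), and Scarb2 had 50.8 FPKM in TG10M replicate 3 (53.0 to 53.8 in the others). None of these genes but Smpd1, Gabarap and Atp6v1b2 is among those given library by library above.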

How the results depend on the processing

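The count of the 43 genes called between the genotypes at 10 months, 1 as reported, was 0 with TG10M and WT10M fitted alone (16 genes called in all, against 87) and 0 with transcripts in place of genes. It was 2 with the replicate block (72 in all), 3 with a term for the set apart (178), 4 without it (326), 2 with a term for the 7 libraries of low Hsp90aa1 (117) and 9 with array weights (945). Leaving out each library in turn gave 0 to 10, and 0 without any 1 of 11 libraries. All of these calls were higher in TG10M, and the cause of the spread was not tested. At 3 months the count was 1 (Smpd1) without the set apart or with a term for it (473 and 492 genes in all, against 41), and 0 otherwise. Between TG10M and TG03M it was 1 without the set apart or with a term for it, 10 with the term for low Hsp90aa1 (2319 genes in all, against 116), and 0 to 2 leaving out each library. It was 0 throughout for WT10M over WT03M and for the interaction. Pseudocounts of 0.1 and 1, other filters, median centring, quantile normalization and a robust prior moved no count. The median difference of the 43 genes at 10 months stayed between 0.07 and 0.11, while the medians near 0 changed sign (-0.01 to 0.03 at 3 months and -0.01 to 0.03 with age in wild type). Among the single differences recomputed under the alternatives, that of Gabarap at 3 months changed sign, to -0.10 with the term for low Hsp90aa1. Same-numbered libraries deviated together in 5 of 30 pairs (r over 0.1, whole range -0.42 to 0.66), 3 of them among the 5 pairs of TG10M with WT10M (0.27, 0.18 and 0.66, the last being libraries of the set apart). Since not every pair did, the numbers were not taken to pair the libraries; with the number as a block Grn joined Man2b1 at 10 months, and no other count of called members changed. Depth is known only from the FPKM steps, and 5 libraries a group limit the precision of differences as small as these.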
